A study of Mus musculus with 60 samples.

Results

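Cd34, Cd44, Cd24a, Sox2, Sox9 and Prom1 are genes that have been used to mark stem cells in skin or in tumors. They were taken as a set of 6 genes by their symbols, through every probe set of the array whose annotation names a single gene that is on this list. This gave 13 of the 45101 probe sets on the array. All 6 genes were among the 12791 of 18194 genes that passed the filter on low values, with 11 of the 13 probe sets. The set was read in 60 carcinomas of 55 FVBBX mice, the offspring of SPRET/Ei X FVB/N hybrids backcrossed to FVB/N, whose dorsal skin had been treated with the carcinogen DMBA and the tumor promoter TPA. All groups shared this strain background and treatment, and the labels give no ages. The mice were of both sexes, of agouti or white coat, and of several labelled backcross origins. Sex, coat and origin were not part of the main tests. Untreated skin and papillomas were not analysed here.

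The carcinomas comprised 38 squamous cell carcinomas (SCC) from 35 mice, 14 spindle carcinomas from 13 mice and 8 carcinomas from 7 mice for which the labels give no histology. By grade, 13 mice had well differentiated SCC, 13 moderately differentiated SCC and 9 poorly differentiated SCC, whereas 12 of the 13 spindle mice were graded poor. The p53 label was 1 (mutant) in 14 mice and 0 (called not mutant here) in 41. Nodal status was 1 (read here as node positive) in 15 mice, 0 in 19, and not given in 21. Mice with fewer than 2 papillomas at 20 weeks were called resistant (17 mice), and mice with more than 7 were called sensitive (16 mice). The 5 mice that gave a pair of carcinomas entered each test as the mean of their tumors, so n counts mice. Each carcinoma was a whole tissue sample, in which fewer cells of a type and less RNA per cell cannot be told apart.

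CD34 is a sialomucin found on hair follicle bulge stem cells, and also on endothelial and blood progenitor cells. CD44 is a receptor for hyaluronan, and CD24 is a small mucin-like protein anchored to the membrane by a lipid. Prominin-1 (Prom1, CD133) is a pentaspan membrane protein of cell protrusions. Sox2 and Sox9 are HMG-box transcription factors, of which Sox9 acts in hair follicle stem cells and Sox2 in the dermal papilla and in squamous cancers.

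Several arrays stood apart from their labels. Signals of Xist and Y-linked genes went against the sex label on 9 of 60 arrays, spindle 8 and SCC 24 among them. Across the genes kept, arrays SCC 21 and SCC 22, and arrays SCC 18 and no histology 3, came from different mice yet correlated above 0.98, against a median of 0.9118 for pairs of arrays. The basal keratin Krt5 was at 5.51 on the log2 scale in spindle 8 but at 13.44 in spindle 9, the other carcinoma of that mouse. It was at 5.94 in SCC 24, where the median SCC array was at 13.20 and the median spindle array at 9.65. Epcam, an epithelial adhesion molecule, was at 4.09 in SCC 24, 6.05 in SCC 21 and 6.19 in SCC 22, below the spindle median of 6.84. Several results that changed without these arrays are given below with the values left.

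All values are log2 RMA expression, and the level of a probe set is compared only with the same probe set in other carcinomas. Sox2 had the widest range. Its only probe set (1416967_at) ran from 2.35 in spindle 6 to 10.21 in spindle 4 around a median of 6.07, and lay above the array's own median in 41 of 60 arrays. Prom1 (1419700_a_at) ran from 3.15 in SCC 22 to 10.83 in SCC 16 and lay above the array median in 46. In both genes the remaining carcinomas were below the median of their own array. Over mice, the SD of Sox2 was 2.10 and that of Prom1 1.95, larger than in 99.4% and 99.1% of the 12791 genes. Cd24a followed with an SD of 1.34 (96.9% of genes had a smaller one), then Sox9 with 0.80 and Cd34 with 0.73. Cd44 had an SD of 0.29, below the median SD of all genes, 0.39.

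Where a gene had several probe sets, the brightest was used. The 3 probe sets of Cd24a ran together, with Spearman's rho between 0.90 and 0.96 over 55 mice. One of them, 1437502_x_at, is of a class whose probes can also match related transcripts. The brighter pair for Sox9 (1451538_at and 1424950_at) had a rho of 0.81. For Cd44 the probe set used, 1423760_at, had a rho of 0.78 with 1434376_at and of 0.60 with 1452483_a_at, while the latter pair reached only 0.28. The remaining probe sets, 1443265_at for Cd44 and 1433889_at for Sox9, were below the array median on all 60 arrays and were not tested.

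Spindle carcinomas, which have lost squamous morphology, were compared with SCC to ask whether the markers differed by histology. Cd24a was lower and Cd34 higher in the spindle group, while the other 4 genes did not pass the test. These 2 of 6 calls stand against 26.5% of all genes called in this comparison (3391 of 12791). By direction, 15.5% of genes were higher and 11% lower.

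Cd24a ran from 8.26 through a median of 11.64 to 12.73 in the 35 SCC mice, and from 7.96 through 8.83 to 12.21 in the 13 spindle mice. The groups overlapped, but 12 of 13 spindle mice lay below the SCC median and 2 lay below every SCC mouse. The spindle mouse above it was spindle 5. The mean fell by 2.11 on the log2 scale (SE 0.34, 4.33-fold lower, limma adjusted p = 0.000162), and it ranked 6 of 12791 genes by p. The other probe sets of Cd24a gave differences of -2.07 and -2.11. Against the 9 poorly differentiated SCC alone the difference was -2.05 (SE 0.49) with an adjusted p of 0.136, and 0 of 12791 genes passed there in limma, with 2293 at an unadjusted p under 0.05. Without the mouse of spindle 8 and spindle 9 it was -2.11, and without SCC 24 it was -2.21.

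Cd34 ran from 7.45 through 9.09 to 10.05 in SCC and from 8.28 through 9.68 to 10.48 in spindle carcinomas. Here 9 of 13 spindle mice were above the SCC median and 4 were above every SCC mouse, with the groups otherwise overlapping. The difference was 0.57 (SE 0.22, 1.48-fold higher, adjusted p = 0.0446). That call was close to the threshold and held under 8 of 16 alternatives, with adjusted p between 0.0227 and 0.884. Without the 9 arrays whose sex signals went against the label, the difference was 0.46 and the adjusted p 0.174.

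Prom1 ran from 3.74 through 6.69 to 10.83 in SCC and from 3.49 through 4.96 to 9.70 in spindle carcinomas. It lay above the array median in 31 of 35 SCC mice and in 7 of 13 spindle mice. The difference of -1.22 (SE 0.63, 95% interval -2.48 to 0.05) did not pass, with an adjusted p of 0.148.

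Cd44 had nearly the same mean in both groups, 11.32 ± 0.31 (SD, n = 35) in SCC and 11.35 ± 0.28 (n = 13) in spindle carcinomas. The 95% interval of the difference ran from -0.17 to 0.22 on the log2 scale, the narrowest of the set. Sox9 averaged 7.11 ± 0.83 in SCC and 7.10 ± 0.89 in spindle carcinomas, with an interval of -0.54 to 0.53. Sox2 spread widely in both groups, from 2.51 to 8.55 in SCC and from 2.35 to 10.21 in spindle carcinomas, and the interval of its difference ran from -1.63 to 1.06. The intervals of Sox2 and Prom1 are wide, so that neither gene can be said to be alike in both histologies.

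The 7 mice with no histology label were in no comparison by histology. Their Cd24a values ran from 9.36 to 11.00, between the medians of the spindle and SCC groups in all 7. Their Sox2 values ran from 2.99 to 9.19.

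**Figure D1:**
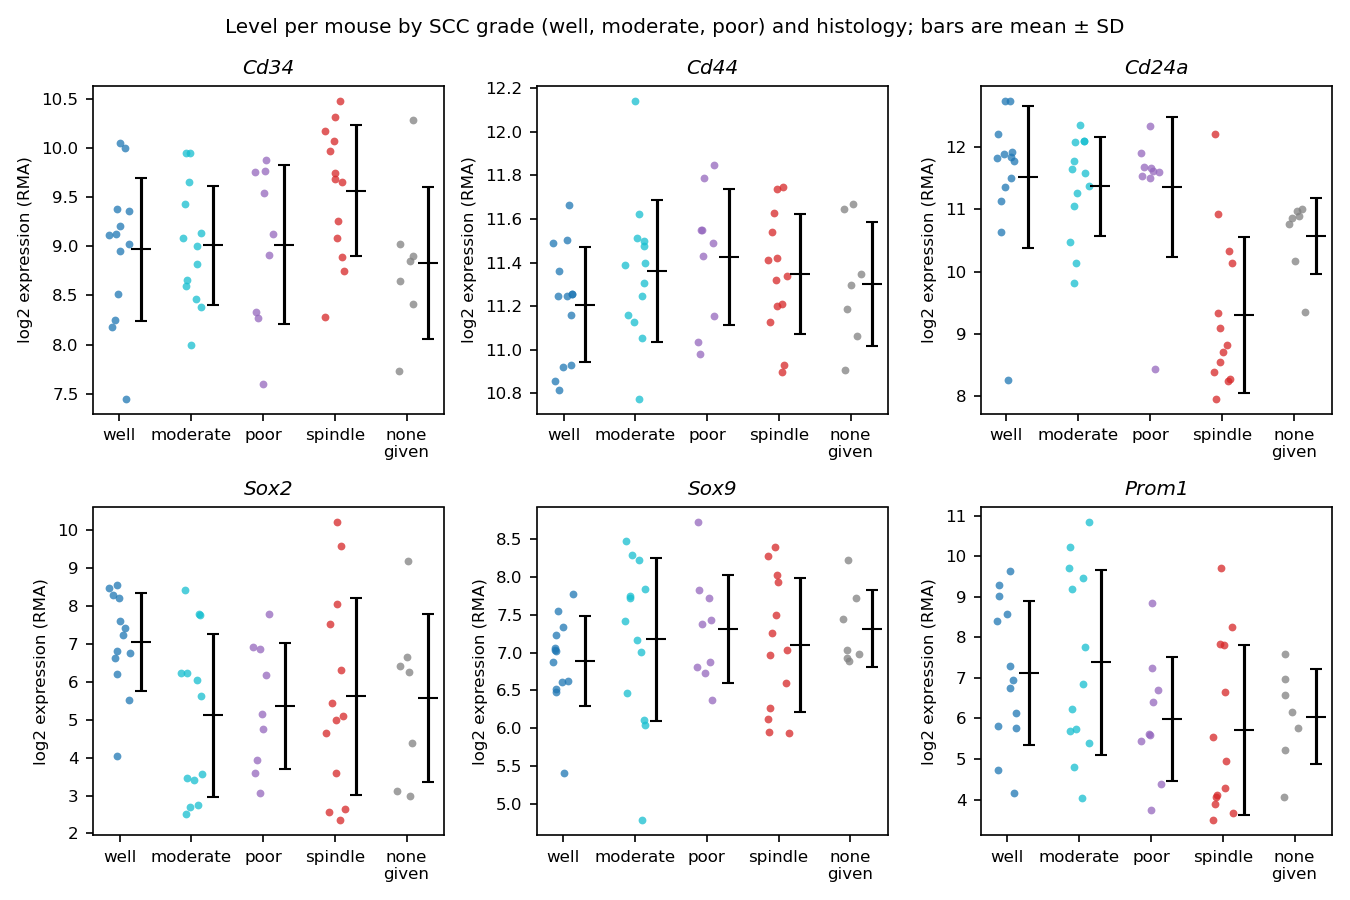
Log2 expression (RMA) of each gene, 1 point per mouse, by SCC grade and histology; the bars give the mean ± SD and each panel has its own axis. Cd24a falls in 12 of 13 spindle mice below the SCC median of 11.64, while Sox2 and Prom1 span most of their range within each histology.

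Other markers moved with the same histology labels. All 6 epithelial adhesion genes (Cdh1, Epcam, Cldn4, Dsp, Grhl2 and Ovol1) were lower in spindle carcinomas, by 1.52 to 2.28 on the log2 scale. Of 6 basal keratinocyte genes 5 were lower, with the transcription factor Trp63 (-2.71) and the keratins Krt5 (-2.45) and Krt14 (-2.10) among them, and Itgb1 was higher (0.33). The mean of the adhesion genes ran from 4.16 to 10.38 in SCC and from 4.74 to 10.13 in spindle carcinomas. Their part in the Cd24a difference was not tested. Of 9 genes of epithelial-mesenchymal transition, 6 were higher, namely S100a4 (1.53), the repressor Zeb1 (1.44), fibronectin Fn1 (1.34), vimentin Vim (1.23), Snai1 (1.13) and Zeb2 (0.70), and Snai2 was lower (-0.63). Cd34 is also carried by endothelial cells. Of 7 endothelial genes 0 passed in limma, with 0 at an unadjusted p under 0.05. Their mean ran from 5.68 to 8.02 in SCC and from 5.42 to 7.46 in spindle carcinomas. The part of endothelial or other cells in the Cd34 difference was not tested. Of the 5 macrophage genes only C1qa passed in limma (0.75 higher), with 3 at an unadjusted p under 0.05. Of 5 mast cell genes 0 passed in limma, with 2 at an unadjusted p under 0.05. The median differences of these lists were 0.53 and 0.64, against 0.03 over all genes. Of 7 fibroblast genes 2 were higher and 1 lower, with a median difference of 0.20. All 4 neutrophil genes tested were lower.

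Among hair follicle stem cell genes, 3 of 11 tested were higher in spindle carcinomas and 3 were lower, with a median difference of 0.21 against 0.03 over all genes. Higher were the secreted protein Dkk3 (1.28), the transcription factor Nfatc1 (1.00) and the Wnt pathway repressor Tcf7l1 (0.48). Lower were the hemidesmosome collagen Col17a1 (-2.49), the keratin Krt15 (-2.17) and the integrin Itga6 (-0.55). Of 5 genes of isthmus and gland progenitors, Lrig1 (1.57), a negative regulator of EGF receptor signaling, and Gata6 (0.84) were higher and Prdm1 (-0.52) was lower. Of 9 other stem cell markers, Bmi1 (0.41) and Nes (0.43) were higher. The retinaldehyde dehydrogenase Aldh1a3 (-2.38), Ngfr (-1.03), Procr (-0.93) and Klf4 (-0.84) were lower.

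Of 12 Sox family genes tested beside Sox2 and Sox9, Sox4 was higher (0.90) and Sox15 (-1.94), Sox7 (-1.27) and Sox21 (-0.71) were lower. Of 11 genes tested among ligands, partners and splicing factors of Cd44, 2 were higher, 5 were lower and 4 did not pass, with a median difference of -0.03 against 0.03 over all genes. The hyaluronan synthase Has3 was lower by 2.61 and Has1 was higher by 0.75. Esrp1 and Esrp2, RNA-binding proteins known to direct the splicing of Cd44, were lower by 2.20 and 2.02. The matrix proteoglycan Vcan was higher by 1.35, and the membrane linker Ezr (-0.69) and the hyaluronidase Hyal2 (-0.34) were lower. Of 4 partners of Cd24 and Cd34 tested, the adhesion molecule L1cam was lower by 0.97. Of 5 Vegf pathway genes, Vegfa was lower by 0.84 and the receptor Nrp2 higher by 0.65. None of the listed genes passed in any of the other comparisons.

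The labels carry a further value, tumor_class (1 or 2), without saying how it was assigned or whether expression was used. If it was, the ranges and the adjusted differences given next are circular, so they are a description with no test. Among the 14 spindle arrays, Cd24a ran from 5.92 to 9.10 in the 9 of class 1 and from 10.14 to 12.74 in the 5 of class 2. These ranges did not overlap, but the share of all genes split in this way was not counted. Prom1 was likewise split, from 3.49 to 5.54 in class 1 and from 7.81 to 9.70 in class 2, as was Sox9, from 5.94 to 7.28 and from 7.50 to 9.51. Cd34 overlapped, from 8.89 to 10.48 in class 1 and from 7.87 to 10.17 in class 2, and so did Sox2. These are arrays and not mice, since spindle 8 (class 1) and spindle 9 (class 2) came from the same mouse. They held the lowest and highest Cd24a, 5.92 and 12.74, and the highest Sox9 of their class, 7.28 and 9.51. Spindle 9 also held the lowest Cd34, 7.87. The sex signals of spindle 8 went against its label. Among SCC, the 5 arrays of class 1 had Cd24a between 8.26 and 10.82 and Prom1 between 3.15 and 5.01. The 33 SCC arrays of class 2 had Cd24a between 10.14 and 12.73 and Prom1 between 4.38 and 10.83. With tumor_class in the model, the spindle minus SCC difference of Cd24a was -0.70 (SE 0.24) and that of Prom1 was 0.86.

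Within SCC, grade was compared over well, moderately and poorly differentiated tumors. None of the 6 genes passed in any pair of grades, and 0% of all genes (0 of 12791) did so by limma in each pair. At an unadjusted p under 0.05 there were 687 genes for poor against well, 318 for moderate against well and 1089 for poor against moderate.

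Sox2 had the smallest unadjusted p of the set. It ran from 4.04 through 7.24 to 8.55 in well differentiated SCC, from 2.51 through 5.63 to 8.43 in moderately and from 3.08 through 5.14 to 7.78 in poorly differentiated SCC. It lay above the array median in 12 of 13, 7 of 13 and 6 of 9 mice. Below the lowest well differentiated tumor lay 6 of 13 moderately and 3 of 9 poorly differentiated tumors. Moderate minus well was -1.94 (SE 0.66, 95% interval -3.27 to -0.61, unadjusted p = 0.00552, limma adjusted p = 1), and it ranked 21 of 12791 genes by p. Poor minus well was -1.70 (SE 0.73, unadjusted p = 0.0251, adjusted p = 0.889). Over the alternatives tried these differences stayed between -2.19 and -1.54 and between -2.16 and -1.61, and none passed.

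Prom1 had means of 7.12, 7.38 and 5.99 from well to poor grade, and poor minus moderate was -1.39 (SE 0.80, adjusted p = 0.607). Cd44 had means of 11.21, 11.36 and 11.43, and Sox9 of 6.89, 7.18 and 7.32. Neither difference passed. Cd24a differed by -0.16 from well to poor grade and Cd34 by 0.05. The lowest Cd24a values in SCC did not follow grade. They were 8.26 in the well differentiated SCC 24 and 8.45 in the poorly differentiated SCC 21.

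**Figure D2:**
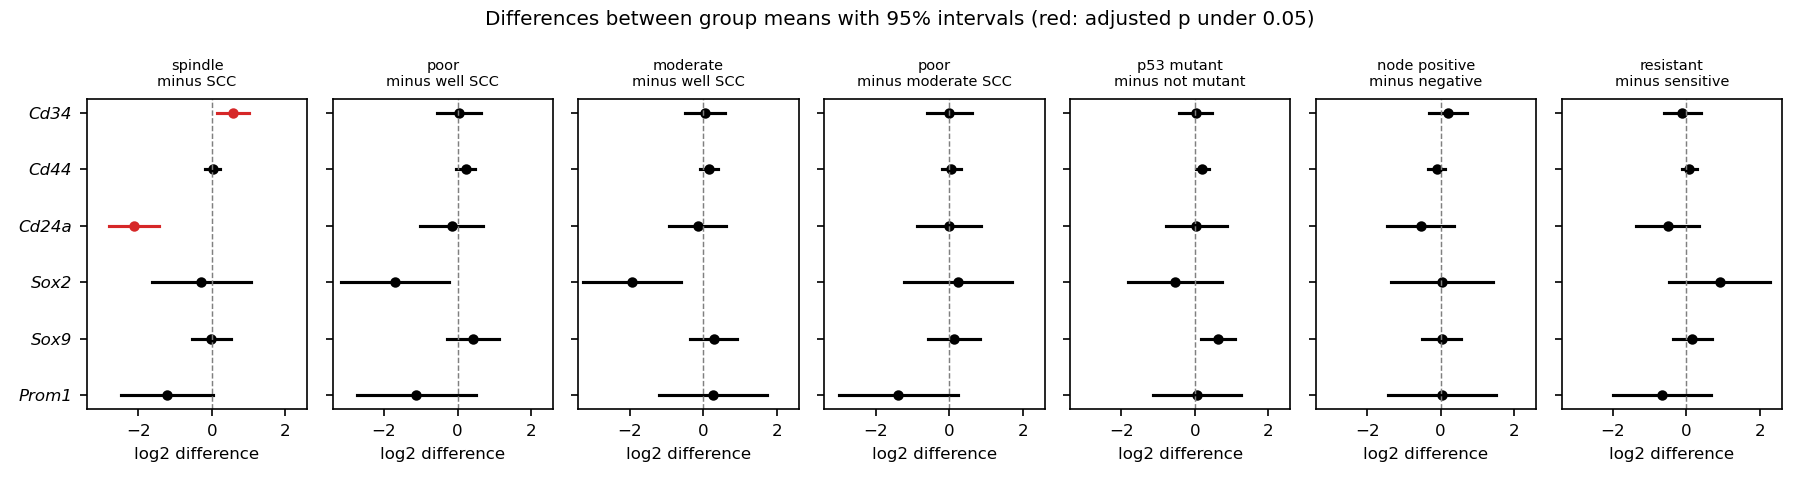
Differences of group means on the log2 scale (points) with 95% limma intervals (lines) for the 6 genes in 7 comparisons, red where the adjusted p was under 0.05. Cd24a at -2.11 and Cd34 at 0.57 in spindle minus SCC are the only red entries, and the intervals of Sox2 and Prom1 are the widest.

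Carcinomas labelled p53 mutant were compared with all others. None of the 6 genes passed in limma, with 2 at an unadjusted p under 0.05, and 0.281% of all genes did (36 of 12791). Sox9 ran from 6.61 through 7.72 to 8.39 in the 14 mutant mice and from 4.78 through 7.01 to 8.72 in the other 41. The mutant mice fell within the range of the others, with 11 of 14 above their median. The difference was 0.62 (SE 0.23, 1.54-fold, unadjusted p = 0.00919, limma adjusted p = 0.248). The other bright probe set of Sox9 gave 0.71. By histology, Sox9 averaged 7.97 ± 0.51 in 4 mutant and 6.71 ± 0.73 in 9 other spindle mice, and 7.48 ± 0.55 in 8 mutant and 6.99 ± 0.87 in 27 other SCC mice. The highest of the 4 mutant spindle mice, at 8.39, was the mean of spindle 8 (7.28) and spindle 9 (9.51). The sex signals of spindle 8 went against its label. The difference between the histologies was not tested.

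Cd44 ran from 10.90 through 11.49 to 12.14 in p53 mutant mice and from 10.78 through 11.26 to 11.75 in the others. The highest 3 mutant mice lay above all others. Its difference was 0.20 (SE 0.09, unadjusted p = 0.0292, adjusted p = 0.368). Sox2 differed by -0.54 (SE 0.64) over all mice. Within SCC the mean was 4.54 ± 1.87 in 8 mutant mice and 6.30 ± 1.77 in 27 others, a difference of -1.76 (SE 0.69, adjusted p = 0.335). Of these 8 mutant mice 5 had poorly differentiated SCC and 1 well differentiated SCC, so p53 and grade moved together. Cd34, Cd24a and Prom1 differed by 0.02, 0.04 and 0.05.

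Node-positive mice were compared with node-negative mice. None of the 6 genes passed by limma and 0 of them had an unadjusted p under 0.05, with 0% of all genes called and 533 at an unadjusted p under 0.05. Cd24a ran from 8.26 through 10.85 to 12.21 in the 15 node-positive mice and from 8.28 through 11.50 to 12.73 in the 19 node-negative mice. The difference was -0.55 (SE 0.45, adjusted p = 0.932) and came to -0.01 without the 9 arrays with sex signals against the label. Within SCC, all 10 node-positive mice lay below the node-negative median of 11.89, and 2 lay below the lowest of the 14 node-negative mice. That difference was -1.12 (SE 0.40, adjusted p = 0.451). The lowest of these 10, SCC 24 and SCC 21, are arrays named above for low Epcam. Cd34 differed by 0.42 within SCC (SE 0.29, adjusted p = 0.602). Sox2, Sox9 and Prom1 had differences of 0.04, 0.02 and 0.04 over all mice.

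Resistant mice were compared with sensitive mice by papillomas at 20 weeks. None of the 6 genes passed by limma and 0 of them had an unadjusted p under 0.05. Again 0% of all genes were called, and 1055 had an unadjusted p under 0.05. Sox2 ran from 2.35 through 6.24 to 9.59 in 17 resistant mice and from 2.55 through 5.04 to 8.30 in 16 sensitive mice, with 12 of 17 above the sensitive median. The difference of 0.91 had an SE of 0.68 and an adjusted p of 0.731. Prom1 differed by -0.67 (SE 0.65) and Cd24a by -0.51 (SE 0.42). Cd34, Cd44 and Sox9 differed by -0.11, 0.07 and 0.16. Other labels were unevenly spread between these groups. More of the resistant than of the sensitive mice were p53 mutant, and fewer of their SCC were well differentiated. Within mice with p53 not mutant, Cd44 and Sox9 turned direction, with the values given at the end. The part of grade in these differences was not tested. With the papilloma count of all 55 mice in the model, Sox2 changed by -0.22 (SE 0.18) per doubling of the count plus 1, with an adjusted p of 0.844.

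The probe sets of Cd44 gave unequal values in several of these comparisons, none of which passed after adjustment in limma over all probe sets kept. The less bright 1452483_a_at differed by 0.45 in moderate minus well SCC (unadjusted p = 0.0151, adjusted p = 1), where the probe set used gave 0.15. In poor minus moderate SCC it was at -0.23 and the probe set used at 0.06. For p53 it gave 0.30 (unadjusted p = 0.0238, adjusted p = 0.347) beside 0.20, and for node status -0.34 (unadjusted p = 0.02, adjusted p = 0.922) beside -0.11. In resistant minus sensitive mice it gave 0.32 (unadjusted p = 0.0249, adjusted p = 0.509) beside 0.07. The remaining bright probe set, 1434376_at, gave 0.12, 0.11, 0.13, -0.02 and 0.02 in the same order.

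The carcinomas of the 5 mice that gave a pair show how far the markers can differ within an animal. Cd44 differed least, by 0.03 to 0.45 between the tumors of a mouse. Cd24a differed by 0.39 to 6.82. The largest difference was in the spindle pair, with 5.92 in spindle 8 and 12.74 in spindle 9, the lowest and the highest value of all 60 arrays. In that pair Prom1 was at 3.67 and 9.64, Sox9 at 7.28 and 9.51, Sox2 at 6.08 and 8.96, and Cd34, in the opposite direction, at 10.29 and 7.87. The sex signals of spindle 8 went against the label of this mouse and those of spindle 9 did not. Outside this pair, Sox2 differed by 0.64 to 3.46 and Prom1 by 0.18 to 2.81. SCC 22 and SCC 23, of a single mouse, had Sox2 at 7.97 and 4.51. The spindle pair, SCC 22 and SCC 23, and no histology 6 and no histology 7 carried unlike tumor_class labels. Their Cd24a differences were 6.82, 1.81 and 2.07, against 0.39 and 0.63 in the pairs of a single class. Titles of SCC 3 and SCC 4, and of no histology 6 and no histology 7, are numbered unlike those of the other pairs. They do not state whether these were separate tumors.

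**Figure D3:**
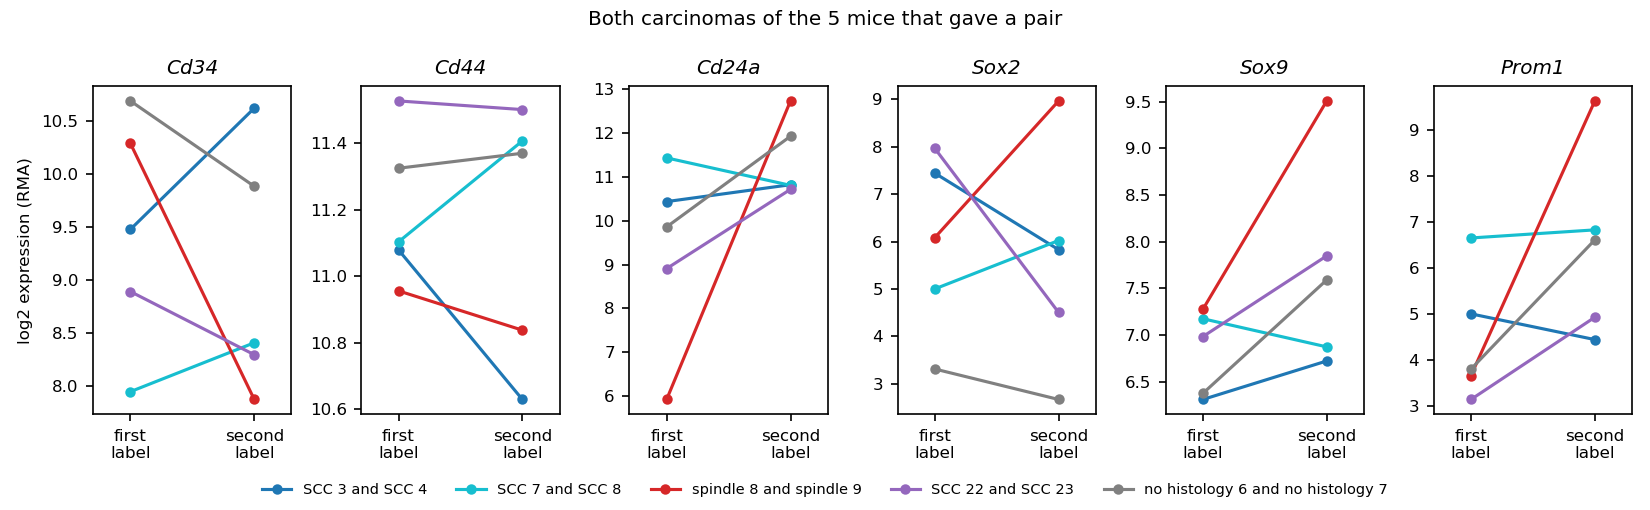
Log2 expression (RMA) of each gene in both carcinomas of 5 mice, joined by a line, in the order of their labels, which has no meaning beyond naming. The red pair, spindle 8 and spindle 9, spans Cd24a values from 5.92 to 12.74, while Cd44 pairs differ by at most 0.45.

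The 15 pairs of genes in the set were tested for correlation across mice, with permutation p-values from 100000 permutations, two-sided, adjusted over the 15. Over all 55 mice 2 pairs passed on Spearman's rho and 4 on Pearson's r, among them both of the former. Cd24a and Prom1 rose together, with r = 0.55 (permutation p = 2e-05) and rho = 0.49 (p = 0.0002, adjusted p = 0.003). Without the 2 mice farthest from the Cd24a median, r was 0.51. Sox2 and Sox9 ran in opposite directions, with r = -0.38 (permutation p = 0.00362) and rho = -0.37 (p = 0.00511, adjusted p = 0.0383), and r was -0.39 without the 2 farthest mice. On r alone, Cd34 ran against Cd24a (r = -0.38, permutation adjusted p = 0.0213, rho = -0.32, adjusted p = 0.0602) and against Sox9 (r = -0.33, adjusted p = 0.05 after rounding, rho = -0.34, adjusted p = 0.0582). On rho, 8 pairs had an unadjusted p under 0.05, and without the near-identical arrays 7 passed after adjustment (4 on r), the 5 added being Cd34 with Cd24a, Sox9 and Prom1 and Cd44 with Sox2 and Sox9. When the arrays with sex signals against the label were left out, Sox2 and Sox9 passed on rho only (-0.39, permutation adjusted p = 0.0466). Their r was -0.34 (permutation adjusted p = 0.0886). Cd34 and Sox9 then had r = -0.32 (permutation adjusted p = 0.112).

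These relations differed in the values they took within each histology. In 35 SCC mice Sox2 and Sox9 had r = -0.62 (permutation p = 3e-05) and rho = -0.60 (permutation p = 9e-05, adjusted p = 0.00135). Without the 2 SCC mice farthest from the Sox2 median r was -0.55. Of the 15 pairs 1 passed in SCC, on rho and on r. Without the arrays with sex signals against the label, rho was -0.67 in 29 SCC mice, and without the near-identical arrays it was -0.61 in 33. In 13 spindle mice the same pair had rho = 0.20 (permutation p = 0.503). Cd24a and Prom1 had rho = 0.20 in SCC (permutation p = 0.252, adjusted p = 0.629), with r = 0.35 (permutation p = 0.0384, adjusted p = 0.258), and r was 0.09 without the 2 mice farthest from the Cd24a median. In spindle mice they had rho = 0.81 (permutation p = 0.00123, adjusted p = 0.00922) and r = 0.93 (permutation adjusted p = 0.00105). Sox9 and Prom1 had rho = 0.09 in SCC (permutation p = 0.608) and 0.84 in spindle mice (permutation p = 0.00077, adjusted p = 0.00922), where r was 0.83 (permutation adjusted p = 0.0057). Cd24a and Sox9 had rho = 0.74 in spindle mice (permutation p = 0.00513, adjusted p = 0.0256) and r = 0.74 (permutation adjusted p = 0.0133). Without the 2 spindle mice farthest from the median of the first gene, r was 0.89, 0.86 and 0.69 for these 3 pairs. On r alone Cd34 and Prom1 passed in spindle mice (r = -0.69, permutation adjusted p = 0.0397, rho = -0.64, adjusted p = 0.0775), with r = -0.40 without the 2 farthest mice. Without the mouse of spindle 8 and spindle 9 the rho of the 3 pairs were 0.76, 0.86 and 0.73 over 12 mice. On r, Cd44 then also passed with Cd24a (0.69), Sox9 (0.69) and Prom1 (0.67), each with a permutation adjusted p of 0.0368. Cd34 also passed with Cd24a (r = -0.64, permutation adjusted p = 0.046). None of these added pairs passed on rho, with permutation adjusted p between 0.0905 and 0.206. The difference of a correlation between the histologies was not tested. Cd24a, Prom1 and Sox9 are also the genes of the set whose spindle values were split by tumor_class, a split not counted over all genes.

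**Figure D4:**
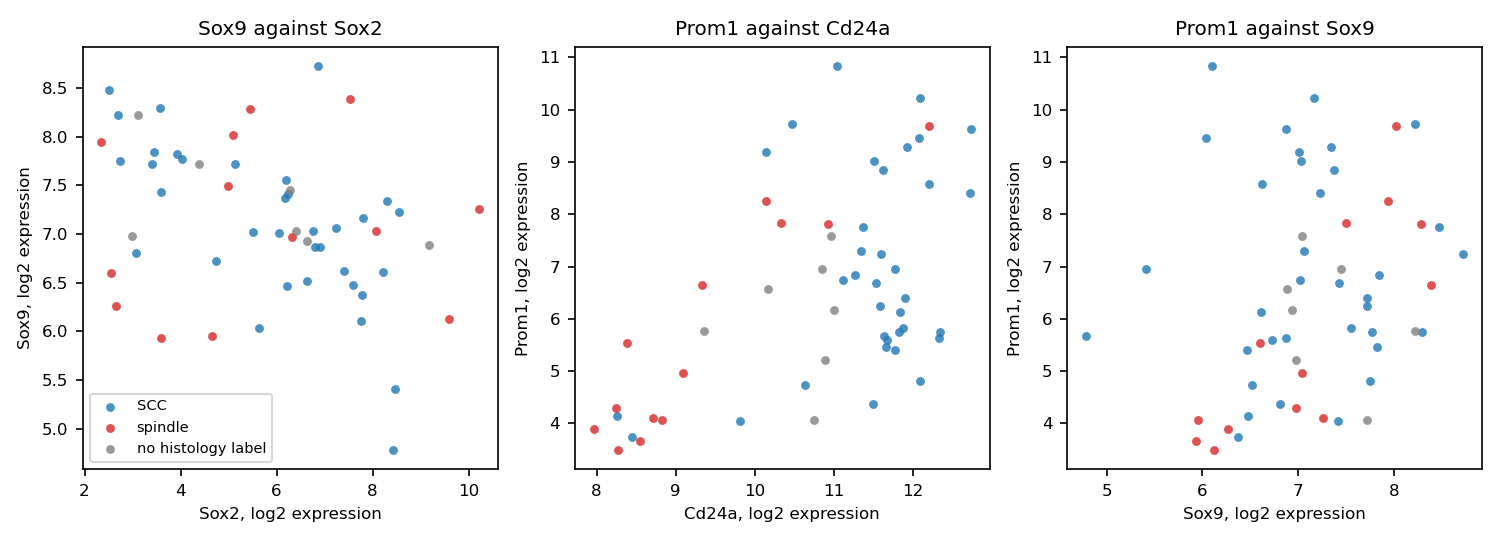
Log2 expression of Sox9 against Sox2, Prom1 against Cd24a and Prom1 against Sox9, 1 point per mouse, colored by histology. SCC mice (blue) fall along a descending band in the first panel (rho = -0.60), and spindle mice (red) along a rising one in the others (rho = 0.81 and 0.84).

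Each gene was set against the mean level of marker lists for 10 classes of cells or epithelial features, 60 relations in all. Over all mice 19 passed on Spearman's rho and 18 on Pearson's r after adjustment over the 60, with 17 in common. Within SCC 0 passed on rho by the same permutation test, with 6 at an unadjusted p under 0.05, and 4 passed on r. Cd24a had its highest rho with the epithelial adhesion genes, 0.65 (permutation adjusted p = 0.0003, r = 0.83), and Prom1 too, 0.53 (adjusted p = 0.0014, r = 0.62). In SCC alone the rho of Cd24a with this list was 0.40 (permutation adjusted p = 0.22) and r was 0.79 (adjusted p = 0.0012), and those of Prom1 were 0.30 (adjusted p = 0.431) and 0.48 (adjusted p = 0.0333). The other relations that passed on r in SCC were Cd24a with basal keratinocyte genes (r = 0.77, permutation adjusted p = 0.0012, rho = 0.19) and with mast cell genes (r = -0.51, permutation adjusted p = 0.0333, rho = -0.39). Without the 2 SCC mice farthest from the median of Cd24a, those of SCC 24 and SCC 21, its r was 0.43 with adhesion, 0.39 with basal keratinocyte and -0.32 with mast cell genes. Without the 2 farthest from the median of Prom1, its r with adhesion genes was 0.51. Sox9 had a rho of 0.55 with basal keratinocyte genes (permutation adjusted p = 0.0003), and of 0.53 within SCC (permutation adjusted p = 0.0762), where r was 0.32 (adjusted p = 0.278). Cd34 ran with macrophage genes (rho = 0.42, permutation adjusted p = 0.0125) and mast cell genes (0.34, adjusted p = 0.0334) and against basal keratinocyte genes (-0.41, adjusted p = 0.0125). With the endothelial list its rho was 0.11. Sox2 passed with none of the 10 lists over all mice by this test, where 0 of 10 also had an unadjusted p under 0.05. The part of cell composition in any of these relations was not tested.

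**Figure D5:**
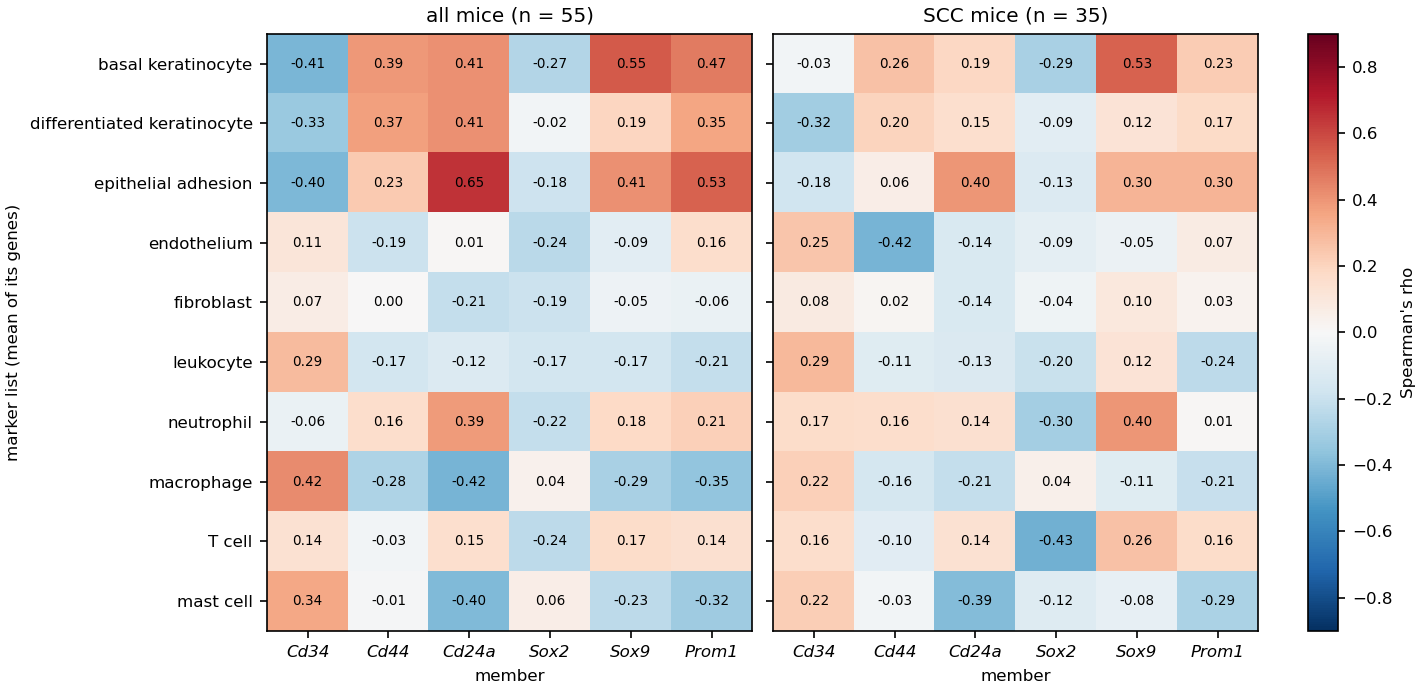
Spearman's rho of each gene (columns) with the mean of each marker list (rows), over all 55 mice (left) and 35 SCC mice (right). The strongest color is Cd24a with epithelial adhesion genes at 0.65 over all mice, and the same entry is 0.40 in SCC mice.

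The genes most like each member over the 55 mice were taken as the 3 of highest Spearman's rho among 12790 others, as a description with no test. For Sox9 they were Shf (0.85), the Wnt receptor Fzd7 (0.76) and the Notch ligand Jag1 (0.75), and over SCC mice the same genes had 0.83, 0.75 and 0.80. For Cd24a they were Mien1 (0.81), the serine protease Tmprss11d (0.81) and the kinase Mapk13 (0.80), which had 0.62, 0.66 and 0.58 in SCC. For Prom1 they were Eya2 (0.80), a transcriptional coactivator, Rnf144b (0.72) and Tex15 (0.71). For Cd34 they were the chemokine Ccl2 (0.66), the Notch pathway factor Rbpj (0.65) and Dgkd (0.63). Lower values were seen for Sox2, with B9d1 (0.62), Blvrb (0.59) and C1galt1c1 (0.56). For Cd44 they were the cadherin Fat1 (0.56), the calcium pump Atp2a2 (0.56) and St8sia2 (0.55).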

How the data were processed

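Total RNA of 60 carcinomas was hybridized by the authors to Affymetrix mouse arrays. The deposited values are log2 signals of probe sets from RMA, run by the authors (background correction, quantile normalization over arrays, probe summary). The RMA version and genome build are not given in the sources used here. Quantile normalization makes differences relative to the whole array. Single gene symbols were held by 34958 probe sets and were updated through RefSeq names (GRCm38.p6). A gene was its probe set of highest mean, kept if 8 or more arrays had it above their own median. Tumors of a mouse were averaged. Group differences were fitted over 12791 genes with limma 3.58.1 (R 4.3.3, lmFit and eBayes, Benjamini-Hochberg, threshold 0.05), tested on simulated data. Correlations used 100000 permutations (numpy 2.4.6). Precision is limited by the number of arrays. The limma p-values set a difference against the spread between these mice, and the correlation p-values come from permuting mice. Members, marker lists and tests were chosen with earlier results of these data known. The genes named are the 6 members with all probe sets, the 3 genes most correlated with each, and up to 4 genes per list that passed, by size of difference. Further genes that passed in a list described were added after their values were seen. Alternatives changed the filter, probe sets, scaling, variance model, arrays, covariates and groups. Marker lists for fibroblasts (2 higher, 1 lower of 7 tested), differentiated keratinocytes (2 lower of 6) and leukocytes, T cells, B cells, melanocytes, Schwann cells, erythroid cells and sebocytes (0 called in limma, with 1 sebocyte gene at an unadjusted p under 0.05) were also read in spindle minus SCC.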

Additional observations from a re-analysis of the deposited data

Results flagged for a closer look

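In the 9 mice with poorly differentiated SCC, the Cd24a value of SCC 21 (8.45) stood apart from the others, of which the next lowest was 11.50. In the 8 SCC mice labelled p53 mutant, the Cd24a value of SCC 12 (10.47) stood apart, with the next lowest at 11.26. These were 2 of 48 member and group combinations examined for an extreme value, and chance alone would single out about 1 in 20 groups. SCC 21 is also an array whose profile nearly matches that of SCC 22, where Cd24a was at 8.91.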

How the results depend on the processing

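No paired analysis was possible because the replicate numbers were given in accession order and only name the samples, and the number at the end of a title does not tie a mouse of one group to a mouse of another. Of 666 single values under alternatives, 602 kept their direction and side of the threshold. Most of the 666 belonged to results that had not passed in the main test. Of the calls made there, that of Cd34 held under 8 of 16 alternatives and that of Cd24a under 14 of 16. In spindle minus SCC, 2 members passed in the main test. The count was 1 with no filter, with every tumor and the mouse as a random block, with a common 75th percentile, without arrays with sex signals against the label, with sex or backcross origin as covariate, and with every probe set on its own, and 0 against poorly differentiated SCC alone and with tumor_class as covariate. In the other 6 comparisons the count stayed at 0 under every alternative run. Among the 15 correlations the count of 2 on rho (4 on r) became 1 in SCC mice and 7 (4 on r) without near-identical arrays. It was 2 on rho and 2 on r without arrays with sex signals against the label. Among the 60 relations with marker lists the count of 19 on rho became 0 in SCC mice, while that of 18 on r became 4. Leaving out spindle 8 and spindle 9, leaving out SCC 24, and the SCC and array subsets of the correlations (other than member pairs in SCC mice) were chosen after seeing the data. The cause of these changes was not tested.

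The values that turned direction belonged to results that had not passed the test. With the mean of probe sets, Cd44 was at -0.002 (spindle minus SCC) and -0.024 (poor minus moderate), Cd24a at 0.067 (poor minus moderate) and -0.004 (p53), and Sox9 at -0.087 (node). Against poorly differentiated SCC, Cd44 was at -0.079 and Sox2 at 0.258. Without arrays with sex signals against the label, Sox2 was at 0.197 and Sox9 at 0.243 (spindle minus SCC), Cd34 at -0.055 and Sox2 at -0.620 (poor minus moderate), Cd34 at -0.124 (p53) and Sox9 at -0.006 (resistant minus sensitive), with rho of Cd44 at -0.117 with Cd24a and -0.024 with Prom1. With the random block, Sox9 was at 0.065 (spindle minus SCC) and Cd24a at 0.046 (poor minus moderate) and -0.023 (p53). With tumor_class, Sox9 was at 0.543 and Prom1 at 0.859. Without near-identical arrays, Cd24a was at 0.192 (poor minus well), 0.293 (poor minus moderate) and -0.030 (p53), Prom1 at -0.012 (p53), Sox2 at -0.085 (node) and rho of Cd34 and Sox2 at 0.015. The common 75th percentile gave Cd34 at -0.004 and the sex covariate Cd24a at 0.007 (poor minus moderate), and the histology covariate gave Cd34 at -0.013 (p53). Without the 3 arrays of largest Gapdh difference, Cd24a was at -0.249 and Prom1 at -0.207 (p53), and Sox9 at -0.075 and Prom1 at -0.162 (node). Without SCC 24, Cd24a was at -0.023 and Prom1 at -0.007 (p53) and Sox2 at -0.102 (node). In SCC only, Prom1 was at -0.154 (p53), and Sox2 at -0.033, Sox9 at -0.429 and Prom1 at -0.685 (node). Without spindle 8 and spindle 9, Sox2 was at -0.097 and Sox9 at -0.064 (node), and with origin as covariate Prom1 was at -0.118 (node). In mice with p53 not mutant, Cd44 was at -0.000 and Sox9 at -0.165 (resistant minus sensitive). In SCC mice, rho was 0.069 for Cd34 and Sox2, -0.154 for Cd44 and Cd24a, and -0.002 for Cd44 and Prom1.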
